A study of Mus musculus with 15 samples.

Results

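The genes described here are the nuclear genes of oxidative phosphorylation in motor neurons of the mouse spinal cord. The rule for a member is a gene symbol that begins with Ndufa, Ndufb, Ndufc, Ndufs or Ndufv and a number, with Uqcr, with Atp5, or with Cox, a number from 4 to 8 and a letter. Of the 36814 genes in the deposited table, 82 had such a name, and 74 of them held at least 10 reads in at least 3 of the 15 libraries. These 74 members comprised 35 genes of complex I, 8 of complex III, 13 of complex IV, 14 of complex V and 4 that carry such a name without being subunits. The other 8 names fell below the read minimum and are accounted for with the isoforms. Atp5g2 was not used, because its count columns held values below 0.

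The libraries came from wild-type mice at postnatal day 6, with 3 libraries for each of 5 motor pools, a pool being the motor neurons that supply a given muscle. Their muscles were, for TA, the tibialis anterior, for EDL, the extensor digitorum longus, for PL, the peroneus longus, for GS, the gastrocnemius, and for IF, the intrinsic muscles of the foot. Per the labels, cholera toxin B subunit coupled to Alexa 555 had been injected into muscle at day 4, and each library pooled 30 to 40 laser-captured cells from 2 to 5 animals. Nothing in the labels ties a library to particular animals, so p-values measure the spread between pooled libraries.

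Oxidative phosphorylation makes most of the ATP of a neuron. Complex I takes electrons from NADH and complex II takes them from succinate. Ubiquinone carries them to complex III, cytochrome c carries them to complex IV, and complex IV passes them to oxygen. Complexes I, III and IV pump protons across the inner mitochondrial membrane, and complex V, the ATP synthase, makes ATP as the protons flow back. Most subunits are encoded in the nucleus and the remainder in mitochondrial DNA. Motor neurons have long axons and a high demand for ATP. Nuclear subunit genes are known to be under the control of the nuclear respiratory factor NRF1, of the ETS-family factor GABP, of YY1 and of the estrogen-related receptors.

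The library totals ran from 4417114 to 8488368 counts, of which the members took 0.927% to 1.61%. Between 70 and 74 members had a read in a library. PL 2 and PL 3 stood apart: 11019 and 10548 genes had a read there, against 13092 to 17321 genes in the 13 other libraries. Across the 74 members, the Spearman correlation of RPKM values (reads per kilobase of gene, scaled to library depth by the authors) was 0.728 to 0.822 in the 27 pairs with PL 2 or PL 3 and 0.836 to 0.984 in the 78 other pairs. These correlations are across genes, which are not replicates. The neurofilament gene Nefm, a marker of large neurons, was at 14713 to 68263 CPM (counts scaled to a common library size by the TMM method) and Chat, the acetylcholine-synthesizing enzyme of motor neurons, at 66.2 to 495 CPM over the 15 libraries. Isl1, a transcription factor of motor neurons, was at 51.4 to 94.1 CPM in GS and 76.1 to 115 CPM in IF, but had no read in the TA and PL libraries and in EDL 1 and EDL 3. Mnx1, another such factor, was at 1.76 to 35.1 CPM.

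Promoters of 63 of the 74 members were found in the RefSeq table of the build GRCm38.p6, each running from 250 bases before to 50 bases after the start site. Motifs were searched on both strands as plain letters: NRF1 as GCGC and TGCGC with 1 free base between them, YY1 as ANATGGCG, the ETS core as CCGGAAG and the estrogen-related receptor motif (ERR) as TCAAGGTCA. The NRF1 motif stood in 13 of the 63 promoters of members (20.6%), against 4.78% of the 27025 promoters of the table. The YY1 motif stood in 12 (19.0%), against 3.84% of all, and the ETS core in 13 (20.6%), against 9.12% of all. The ERR motif stood in 1 (1.59%), against 0.407% of all. The SP1 box GGGCGG stood in 39.7% of the members' promoters and 35.9% of all, CCAAT in 44.4% and 37.9%, and TATAAA in 9.52% and 14.2%. The members' promoters were also richer in CpG, with a median of 19 against 7 per 300 bases in all promoters, and their median GC content was 57.0% against 52.7%. The NRF1, YY1, ETS and SP1 motifs themselves contain CpG, and the part of base composition in these shares was not tested.

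**Figure D1:**
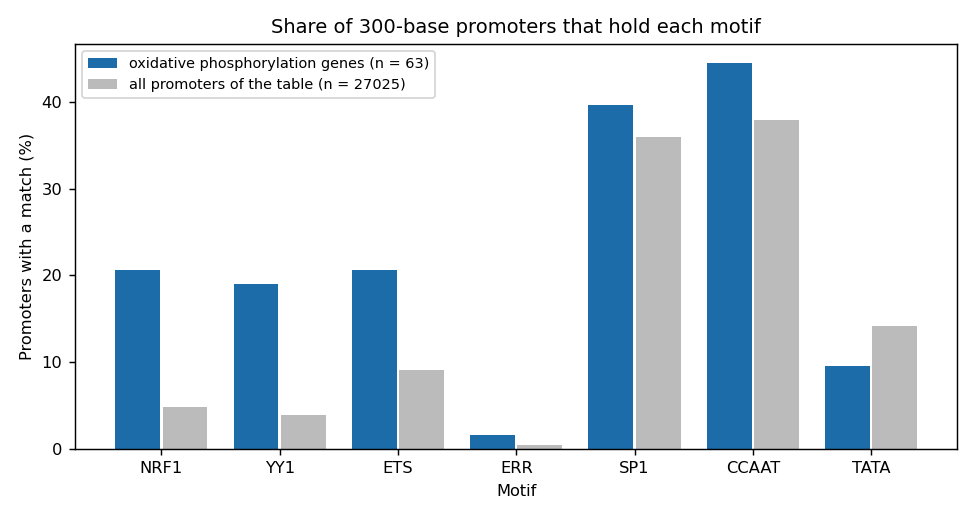
Share of promoters, in percent on the y axis, that held at least 1 match to each motif on the x axis; dark bars are the 63 oxidative phosphorylation genes and grey bars the 27025 promoters of the RefSeq table. NRF1 and YY1 stand at 20.6% and 19.0% in the dark bars, against 4.78% and 3.84% in the grey bars.

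By complex, NRF1 matches were in 7 of 31 promoters of complex I, 1 of 5 of complex III, 1 of 11 of complex IV and 4 of 13 of complex V. YY1 matches were in 7 of 31 promoters of complex I, none of 5 of complex III, 2 of 11 of complex IV and 2 of 13 of complex V. The 5 promoters below are shown as examples: 4 genes of complexes III, IV and V that hold an NRF1 or YY1 match, with Cox7a1, a muscle isoform that was almost unread here, as a contrast. Other genes of these complexes held matches too, among them Cox7c and Atp5o, and Uqcrh, Cox6b1, Cox8a and Atp5l with the ETS core, and are not shown. Their positions on GRCm38.p6 are chr9:108936398-108936697 (plus strand) for Uqcrc1, chr5:115348909-115349208 (minus strand) for Cox6a1, chr10:128083057-128083356 (plus strand) for Atp5b, chr2:73911277-73911576 (minus strand) for Atp5g3 and chr7:30183921-30184220 (plus strand) for Cox7a1. All are printed 5′ to 3′ on the strand of the gene, and capitals mark matches to the NRF1, YY1, ETS and ERR motifs on either strand.
Uqcrc1: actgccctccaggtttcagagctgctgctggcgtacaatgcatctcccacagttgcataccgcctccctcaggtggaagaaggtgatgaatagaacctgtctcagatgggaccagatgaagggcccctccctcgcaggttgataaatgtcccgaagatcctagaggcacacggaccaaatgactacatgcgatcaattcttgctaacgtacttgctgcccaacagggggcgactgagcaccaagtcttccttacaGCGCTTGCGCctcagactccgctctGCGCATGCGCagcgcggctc
Cox6a1: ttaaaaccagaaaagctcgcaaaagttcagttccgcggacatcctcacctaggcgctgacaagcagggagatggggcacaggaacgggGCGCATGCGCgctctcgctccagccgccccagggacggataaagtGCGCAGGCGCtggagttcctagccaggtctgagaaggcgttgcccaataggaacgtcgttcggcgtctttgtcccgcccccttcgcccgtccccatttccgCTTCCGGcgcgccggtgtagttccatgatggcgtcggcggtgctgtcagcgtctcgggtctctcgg
Atp5b: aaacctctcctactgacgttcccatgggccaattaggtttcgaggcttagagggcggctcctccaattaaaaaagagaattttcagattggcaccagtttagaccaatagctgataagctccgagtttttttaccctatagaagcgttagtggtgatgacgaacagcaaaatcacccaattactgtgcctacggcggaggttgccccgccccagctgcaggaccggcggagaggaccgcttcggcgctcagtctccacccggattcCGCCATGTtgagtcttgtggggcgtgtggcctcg
Atp5g3: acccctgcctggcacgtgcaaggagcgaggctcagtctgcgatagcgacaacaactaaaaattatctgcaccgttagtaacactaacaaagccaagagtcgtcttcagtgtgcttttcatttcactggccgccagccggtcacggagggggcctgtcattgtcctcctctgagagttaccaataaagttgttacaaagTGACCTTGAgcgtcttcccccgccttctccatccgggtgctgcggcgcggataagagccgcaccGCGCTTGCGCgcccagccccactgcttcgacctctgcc
Cox7a1: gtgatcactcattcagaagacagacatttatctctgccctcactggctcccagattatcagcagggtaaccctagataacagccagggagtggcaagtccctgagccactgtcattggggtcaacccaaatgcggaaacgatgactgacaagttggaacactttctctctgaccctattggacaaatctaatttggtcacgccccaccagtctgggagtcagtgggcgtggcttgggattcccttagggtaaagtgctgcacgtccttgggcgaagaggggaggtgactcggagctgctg
Uqcrc1 held 2 NRF1 matches just after its start site, Cox6a1 held 2 NRF1 matches and 1 ETS core, and Atp5g3 held 1 NRF1 match and the only ERR match among members. Atp5b held a YY1 match over its start codon, in capitals near the 3′ end of the line. The Cox7a1 promoter held none of these 4 motifs. Neither did the promoters of Ndufa4 at 404.5 RPKM, Cox5a at 271 RPKM and Uqcr10 at 138 RPKM, while Ndufb4 at 0.653 RPKM held 3 NRF1 matches. Whether matches go with level was not tested. Such a match is a run of letters, and binding was not measured.

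Oxidative phosphorylation genes were among the more abundant transcripts of these neurons. The median member was at 33.8 RPKM over the 15 libraries, against 2.83 RPKM for the 14340 genes that passed edgeR's filter on low counts, and 70 of the 74 members lay above that median of 2.83 RPKM. All 74 members passed that filter. By complex, the median was 109 RPKM for complex IV, 59.2 RPKM for complex III, 41.3 RPKM for complex V and 31.2 RPKM for complex I. Of the members, 13 exceeded 100 RPKM and 15 were below 10 RPKM.

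**Figure D2:**
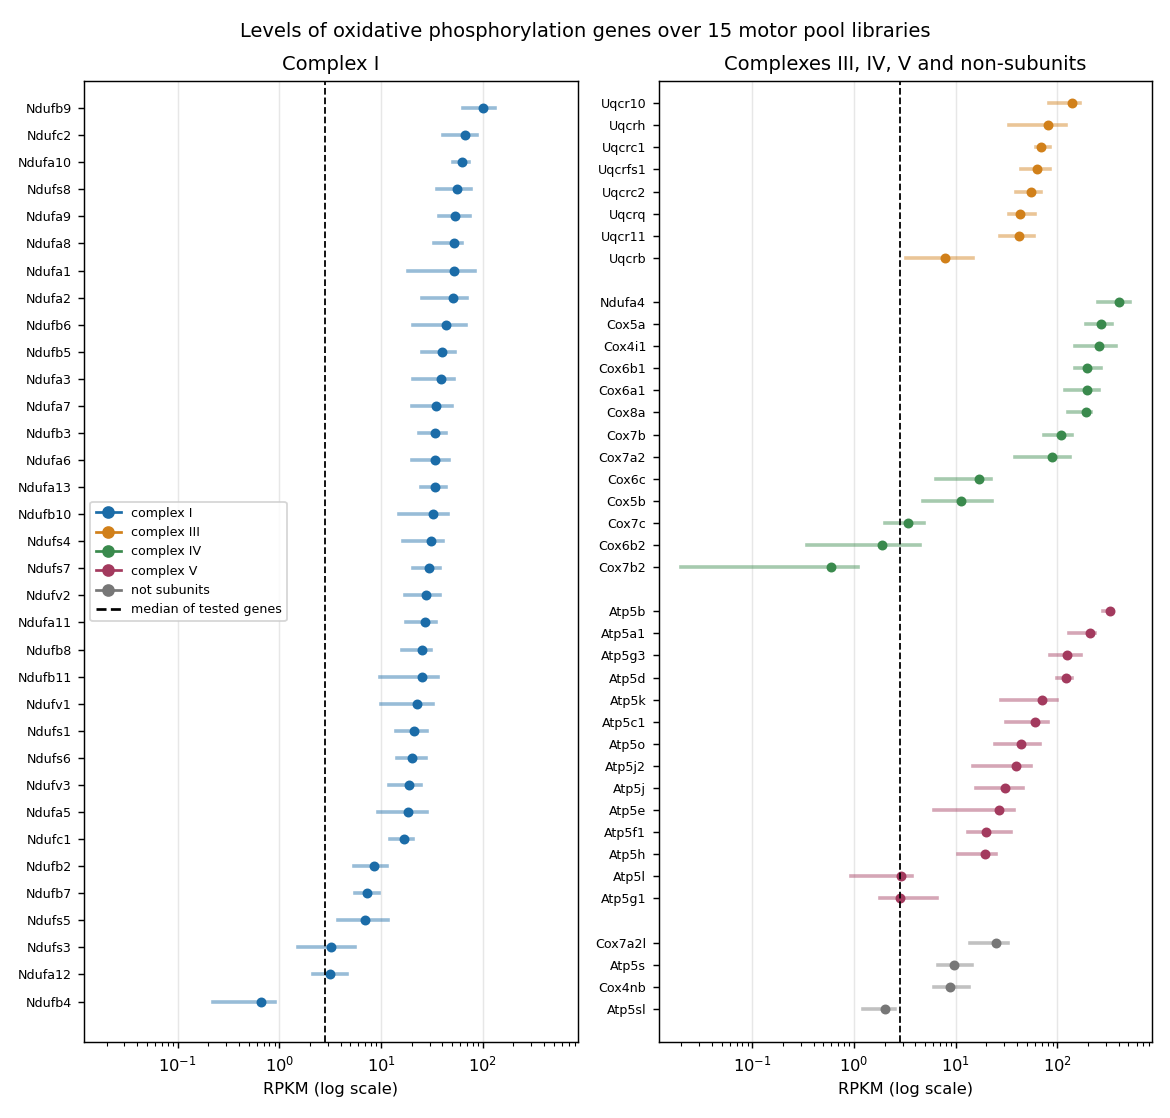
Level of 73 of the 74 members in RPKM on a log axis, grouped by complex; dots are means over 15 libraries and bars run between the lowest and the highest of the 5 pool means, drawn to 0.02 RPKM where a pool was at 0. The dashed line is the median of 14340 tested genes, 2.83 RPKM, and 69 of the 73 dots lie to its right.

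Cytochrome c oxidase, complex IV, held 6 of the 8 highest members. Ndufa4, a subunit first named for complex I and later assigned to complex IV, was the highest at 404.5 RPKM, rank 22 among the tested genes. On mm9 it lies on the minus strand of chromosome 6 from 11850373 to 11857447. Cox5a, a subunit of the oxidase on its matrix side, was at 271 RPKM and Cox4i1, the ubiquitous form of subunit IV, at 254 RPKM. Cox6b1, Cox6a1 and Cox8a, small subunits around the core, were at 196, 195 and 190 RPKM. Cox5a, Cox4i1 and 23 other members overlapped another gene of the table, so some of their reads may belong to a neighbor, since the Nextera library does not mark strand. The gene overlapping Cox5a, AC164548.1, held 23635 reads, against 37662 for Cox5a. Dos, which overlaps Atp5d of complex V, held 39987 reads, against 46578 for Atp5d. The genes overlapping Ndufb2 held 36410 reads, against 9767 for Ndufb2, and Kbtbd4 held 3400, against 1408 for Ndufs3, which it overlaps.

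The ATP synthase, complex V, was led by the subunits of its catalytic head. Atp5b, the catalytic beta subunit (chromosome 10, plus strand, 127520329 to 127527448 on mm9), was at 328 RPKM and Atp5a1, the alpha subunit, at 210 RPKM. The beta and alpha subunits alternate in equal number in the enzyme. The ratio of Atp5b to Atp5a1 in RPKM had a median of 1.54 over the libraries and was lowest in TA 2 at 0.957 and highest in PL 2 and TA 3, both at 3.08. Atp5b alone took 16.2% to 36.6% of all reads of members in a library, with the highest share in TA 3. Atp5g3, which makes the membrane ring of c subunits, was at 124 RPKM and Atp5d, the delta subunit of the central stalk, at 122 RPKM.

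Complexes III and I had no member as high as Atp5b or Ndufa4. Uqcr10, a small subunit of complex III, was at 138 RPKM, Uqcrh, its hinge protein, at 80.0 RPKM, Uqcrc1, a core protein, at 69.1 RPKM, and Uqcrfs1, the Rieske iron-sulfur protein, at 63.5 RPKM. In complex I the highest were the accessory subunits Ndufb9 at 102 RPKM, Ndufc2 at 66.2 RPKM and Ndufa10 at 62.5 RPKM. Core subunits of complex I were below these but differed widely. Ndufs8 was at 55.7 RPKM, Ndufv1, which binds NADH, at 22.4 RPKM and Ndufs1, an iron-sulfur subunit, at 21 RPKM. Some subunits were lower still, among them the core subunit Ndufs3, as given next.

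Several members were far below their partners in the same complex. Ndufb4 was at 0.653 RPKM, Ndufa12 at 3.12 and Ndufs3 at 3.25 RPKM in complex I, Uqcrb was at 7.90 RPKM in complex III and Cox7c at 3.43 RPKM in complex IV. In complex V, Atp5l, the membrane subunit g, was at 2.90 RPKM. Genes can share sequence with other copies or with a neighbor that overlaps them. Of the 50-base words in the annotated transcripts of Uqcrb, 25.5% also stood in a transcript of another gene, on either strand. The share was 22.1% for Cox7c, 18.3% for Ndufb4, 17.9% for Ndufs3 and 17.7% for Ndufa12. It was 9.99% for Atp5l, 2.30% for Atp5b, 2.49% for Atp5a1 and 0 for Ndufa4. Members at higher levels also had such words: the share was 35.1% for Atp5o at 43.8 RPKM and 31.6% for Ndufb6 at 43.2 RPKM. It was 28.5% for Ndufa13 at 33.7 RPKM and 15.6% for Ndufb9 at 102 RPKM. Atp5o, Ndufb6 and Ndufa13 overlapped other genes of the table, as did Uqcrb, Cox7c and Ndufs3. Words shared with copies and with overlapping neighbors were not told apart. Gapdh, a glycolytic gene with 25.1% such words, held 0 to 135 reads per library. How reads that map to several places were counted is not given in the sources used here, and the part of shared sequence in these low values was not tested. The 13 subunits encoded by mitochondrial DNA were listed at 0 in every library, so nothing is said of them.

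Where a subunit has a ubiquitous and a tissue form, the reads were almost all of the ubiquitous form. Cox6a1 had 372 to 2548 reads per library, and its heart and muscle form Cox6a2 had 0 to 13. Cox7a2 had 76 to 1661 reads, and its heart and muscle form Cox7a1 had 0 to 9. Cox8a had 469 to 2509 reads, while the muscle form Cox8b had 5 reads in all and the testis form Cox8c had none in any library. Cox4i1 had 678 to 4147 reads, and the lung form Cox4i2 had 98 in all, of which 81 were in GS 3 and 12 in PL 3. Ndufa4l2, a paralog of Ndufa4 that is induced by low oxygen, had 13 reads in all, against 40240 for Ndufa4. Cox6b2, a testis form that passed the read minimum, had 226 reads, of which 106 were in EDL 1 and 52 in TA 3, against 19642 for Cox6b1. Atp5l-ps1 held 10 reads and Atp5l2 none.

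The few reads of the muscle forms Cox6a2 and Cox7a1 lay mostly in the IF libraries, while those of Cox8b were 1 in GS 2 and 4 in GS 3. Cox6a2 had 5, 13 and 8 reads in IF 1, IF 2 and IF 3, against 5 reads in GS 3 and none in the 11 other libraries. Cox7a1 had 3, 9 and 3 reads in the IF libraries, against 7 in EDL 3, 1 in GS 1, 1 in GS 3 and none elsewhere. Markers of skeletal muscle were present in the same libraries: the summed level of a list of 12 such genes was 10.9 to 18.6 CPM in IF, against 0 to 3.65 CPM in the 12 other libraries. Of that list, 1 gene was tested, Myh2, and it passed in IF (edgeR adjusted p = 0.0128). Myh2 gave 196 of its 229 reads and Acta1 57 of its 60 reads in IF, while Tnni2 and Myog were at 0 in all 15 libraries. Others of the list lay outside IF: Mylpf had 15 of its 17 reads in EDL 3, Des 7 of its 10 in EDL 1 and Myh7 4 of its 5 in EDL 2. The part of other cells' RNA in these reads was not tested.

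The c subunit of the ATP synthase is made by several genes that encode the same mature protein. Atp5g3 had 1153 to 6119 reads per library. Atp5g1 had 1247 reads in PL 3 and 18 to 250 reads in the 14 other libraries. In PL 3, Atp5g1 made up 27.1% of the RPKM of Atp5g1 and Atp5g3 together, against 0.299% to 2.95% in the other libraries. For Atp5g1, 11.1% of 50-base words stood also in a transcript of another gene.

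The summed level of the members overlapped between all 5 pools on the TMM scale, which sets most genes level between libraries. It was 13142 ± 1840 CPM in TA, 12803 ± 2518 in EDL, 13234 ± 2708 in PL, 13175 ± 1534 in GS and 12325 ± 785 in IF (SD, n = 3 each). The libraries ran from 10263 to 15656 CPM. The pools overlapped for complexes I, III and IV too, but not all of them did for complex V. Complex I was at 2830 ± 684 CPM in TA and 3046 ± 478 CPM in PL, its lowest and highest pools. Complex IV was at 1995 ± 290 CPM in PL and 2448 ± 260 CPM in GS, its lowest and highest. Complex V was at 5683 ± 450 CPM in IF and 6894 ± 388 CPM in TA, its lowest and highest. Its TA libraries, from 6465 to 7222 CPM, all lay above its IF libraries, from 5227 to 6127 CPM. This difference in the sum was not tested. Since fewer cells and less RNA per cell cannot be told apart in bulk libraries, these values speak only of shares of RNA.

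On the authors' RPKM the order of the pools was clearer. The members summed to 3686, 4351 and 2766 RPKM in the TA libraries and to 3493, 3344 and 2781 RPKM in the PL libraries. They summed to 6086, 4485 and 5355 RPKM in EDL, 5480, 4761 and 4702 RPKM in GS and 5489, 5624 and 5454 RPKM in IF. All 6 libraries of TA and PL thus lay below the 9 others. The same 6 libraries also had the lowest gene counts as a percentage of the reads by which the authors divided RPKM. These were 44.1% in TA 3 to 47.83% in TA 1, against 47.85% in GS 3 to 54.96% in GS 2 among the 9 others. The part of this divisor in the separation was not tested. As a share of the summed RPKM of all genes the separation was smaller: the members took 2.07% to 2.59% in PL, 2.24% to 3.23% in TA, 2.78% to 3.80% in EDL, 2.93% to 3.35% in GS and 3.25% to 3.58% in IF. In RPKM, 36 members had their highest pool mean in IF and 40 had their lowest in PL. The shares of all tested genes were not counted in RPKM, so these counts cannot be read as particular to the members. On the TMM scale, 15 members (20.3%) were highest in IF, against 15.9% of all tested genes, and 27 (36.5%) were lowest in PL, against 31.9% of all tested genes. The order of the pools therefore depended on the scale, and none of it was tested.

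**Figure D3:**
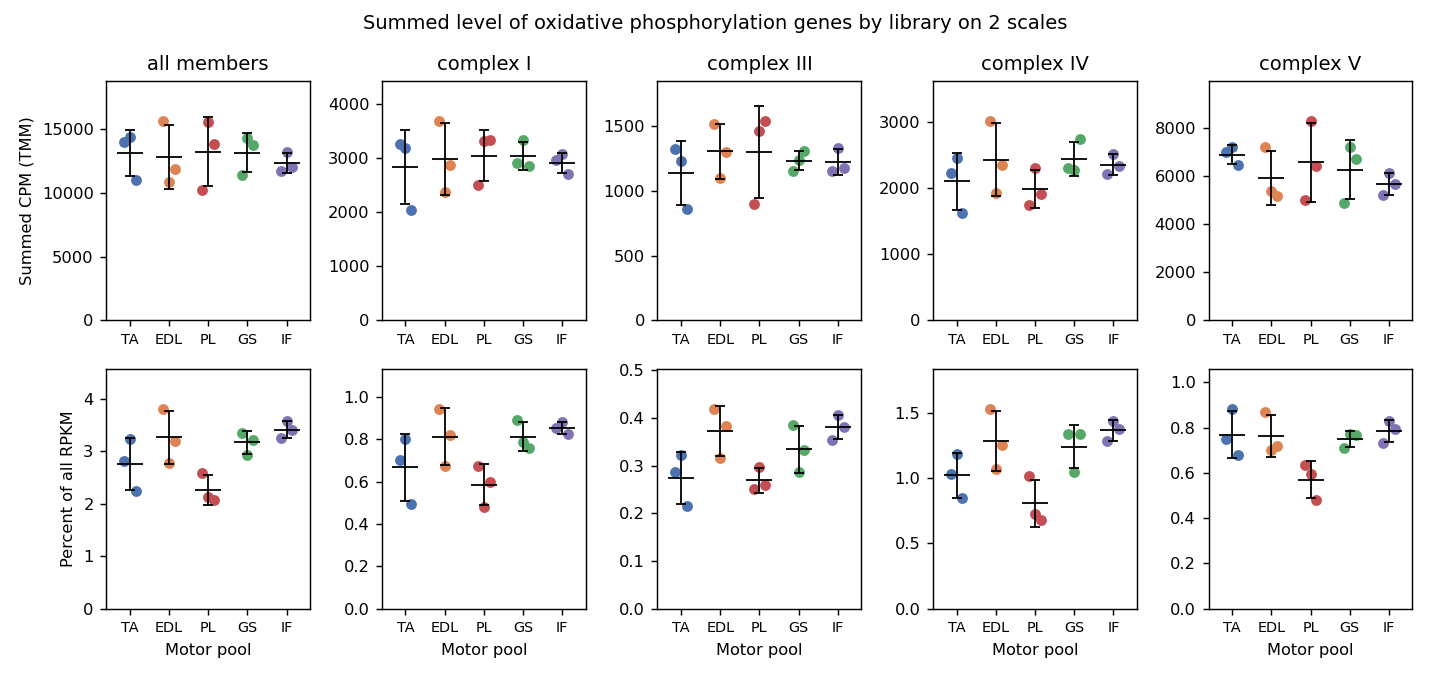
Summed level of the members and of each complex by library, as TMM-scaled CPM (top row) and as percent of the summed RPKM of all genes (bottom row), over the 5 pools on the x axis; dots are libraries, and bars are the mean and SD of 3. All pools overlap in the top row for all members (10263 to 15656 CPM), and PL is lowest in the bottom row with 2.07% to 2.59%.

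No member was called different among the 5 pools. The edgeR quasi-likelihood F-test over all 5 pools passed 0 of the 74 members at a Benjamini-Hochberg adjusted p under 0.05, against 1.31% of the 14340 genes tested. At an unadjusted p under 0.05 it passed 3 members (4.05%), against 15.5% of all tested genes. Among the 2284 tested genes with a mean above the members' median of 95.8 CPM, 4.42% were called and 32.2% had an unadjusted p under 0.05. Whether members differ less than other genes was not tested. The smallest adjusted p-values were those of Uqcrh (0.255) and Atp5j (0.262) in the edgeR test.

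Each pool was then set against the mean of the other 4, and again no member passed in any pool. The share of all tested genes called by edgeR in the same comparison was 0.418% for TA, 0.0976% for EDL, 4.87% for PL, 0.126% for GS and 1.1% for IF. An unadjusted p under 0.05 was reached by 4 members in TA, 0 in EDL, 15 in PL, 0 in GS and 1 in IF. As shares, this was 5.41% of the members against 12.3% of all tested genes in TA, 20.3% against 22.4% in PL and 1.35% against 9.38% in IF. In EDL and GS, where no member reached it, 6.42% and 5.82% of all tested genes did.

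The median log2 fold change of the members, pool over the other 4, was −0.12 in TA, 0.10 in EDL, −0.16 in PL, 0.11 in GS and 0.12 in IF. The medians of all tested genes were 0.06 in TA, 0.06 in EDL, −0.06 in PL, 0.04 in GS and 0.02 in IF. Of the 74 members, 27 lay above 0 in TA, 49 in EDL, 29 in PL, 47 in GS and 45 in IF. By complex the medians kept between −0.40, for complex V in PL, and 0.23, for complex IV in EDL.

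**Figure D4:**
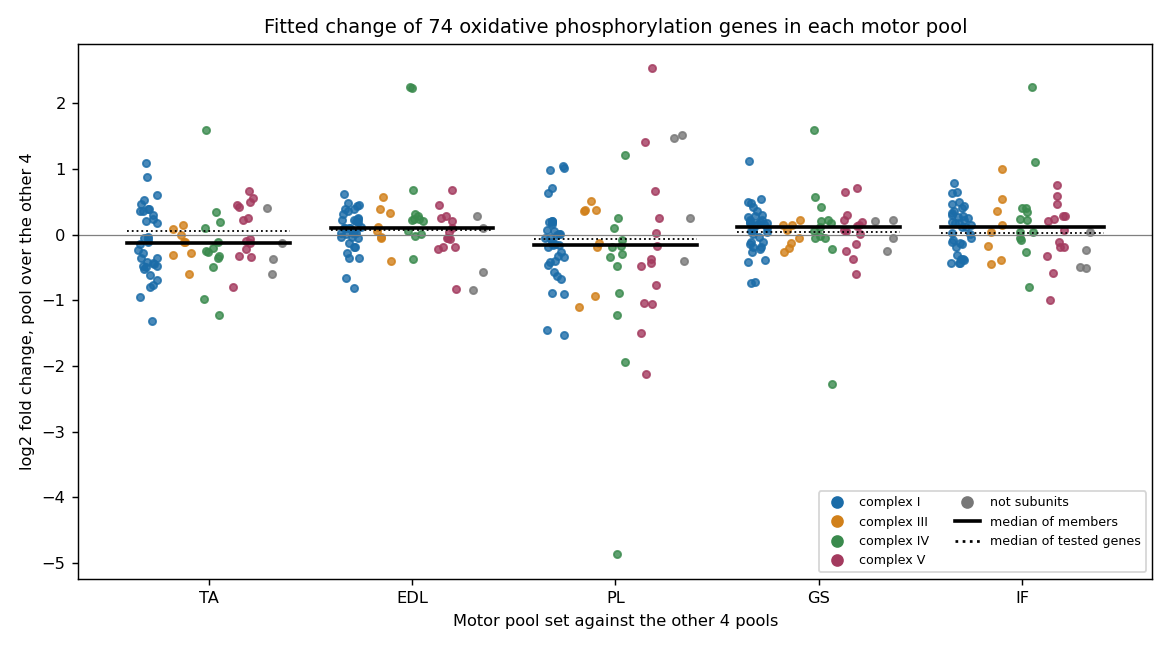
Fitted log2 fold change of each of the 74 members in 1 pool over the other 4 (y axis) for the 5 pools (x axis), with dots coloured by complex, a thick line at the members' median and a dotted line at the median of all tested genes. The members' medians lie between −0.16 in PL and 0.12 in IF, and the dots spread widest in PL.

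A p that misses the threshold does not show equal levels, so the intervals are given too. The 95% confidence interval of the log2 fold change lay within a change of 2-fold in either direction for 20 of 74 members in TA, 26 in EDL, 20 in PL, 30 in GS and 25 in IF. It lay within 4-fold for 62 members in TA, 67 in EDL, 57 in PL, 67 in GS and 64 in IF. For most members the interval thus held changes of 2-fold or more.

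The 7 subunits named here, with central ones of each complex among them, lay within a log2 fold change of 1 in every pool. Cox5a was at 313 ± 68.9 CPM in TA, 414 ± 99.3 in EDL, 346 ± 56.4 in PL, 374 ± 30.9 in GS and 370 ± 45.5 in IF (SD, n = 3 each), and its 5 log2 fold changes lay between −0.26 and 0.24. Atp5b was at 3237 ± 732 CPM in TA, 2524 ± 628 in EDL, 3230 ± 823 in PL, 2814 ± 765 in GS and 2348 ± 328 in IF, with log2 fold changes between −0.32 and 0.26. The extremes for the others were −0.48 and 0.41 for Cox4i1, −0.46 and 0.38 for Uqcrc1, −0.40 and 0.35 for Uqcrfs1 and −0.35 and 0.21 for Ndufs1. Ndufv1 reached furthest, with 79.0, 53.7 and 52.3 CPM in the PL libraries, against 69.8 to 162 CPM in the 12 others. Its log2 fold change in PL was −0.91 ± 0.34 (SE, edgeR adjusted p = 0.126).

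In TA the members with the smallest p were a pair of accessory subunits of complex I. Ndufb11 was at 14.9, 24.0 and 23.4 CPM in the TA libraries, against 25.3 to 91.8 CPM in the 12 others. All TA libraries lay below all others for Ndufb11, the only 1 of the 74 members so placed in TA, as were 0.558% of all tested genes. Ndufb11 had a log2 fold change of −1.32 ± 0.53 (SE, edgeR adjusted p = 0.322). Ndufv3 was at 145, 127 and 84.6 CPM in TA, against 27.8 to 98.9 CPM in the others, with overlap (log2 fold change 0.88 ± 0.39, edgeR adjusted p = 0.368).

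In EDL and GS no member reached an unadjusted p under 0.05. Uqcrh was at 350.5, 165 and 215 CPM in the EDL libraries, against 86.7 to 267 CPM in the 12 others, a log2 fold change of 0.57 ± 0.27 (SE, edgeR adjusted p = 0.788). Cox7a2, the liver form of subunit VIIa, had 0.67 ± 0.35 there (SE, edgeR adjusted p = 0.828). In GS, Ndufa1, an accessory subunit of complex I, was at 50.6, 95.3 and 56.0 CPM, against 0.958 to 61.1 CPM in the others. It had a log2 fold change of 1.11 ± 0.62 (SE, edgeR adjusted p = 0.997). Cox6c, a small subunit of complex IV, had 0.58 ± 0.34 in GS (SE, edgeR adjusted p = 1.00).

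In IF, 3 of the 74 members had all libraries above the 12 others, as did 1.88% of all tested genes. Atp5f1, the b subunit of the peripheral stalk of the ATP synthase, was at 208, 256 and 228 CPM in IF, against 73.5 to 197 CPM in the others. The log2 fold change of Atp5f1 was 0.75 ± 0.28 (SE), the 95% interval ran from 0.16 to 1.34, and the edgeR adjusted p was 0.313. Cox5b, a subunit of complex IV, was at 16.1, 24.9 and 21 CPM in IF, against 4.98 to 15 CPM in the others, and Uqcrb, a small subunit of complex III, at 11.1, 10.5 and 14.2 CPM, against 1.92 to 9.57 CPM. Their edgeR adjusted p-values were 0.686 and 0.854. Atp5d had a log2 fold change of −0.59 ± 0.29 in IF (SE, edgeR adjusted p = 0.565). Markers of other cells were measured in the same libraries. A list of 14 oligodendrocyte genes summed to 263 to 278 CPM in IF, against 321 to 2509 CPM in the others. A list of 10 astrocyte genes summed to 1936 to 2278 CPM in IF, against 2177 to 4375 CPM. Microglia markers overlapped, at 26.5 to 58.6 CPM in IF, against 2.09 to 211 CPM, and skeletal muscle markers were higher in IF, as given above. The part of such RNA in the values of IF was not tested.

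The widest scatter was in PL, and for several members named here it followed 1 or 2 of the 3 libraries. Cox7b2, a testis form with 63 reads in all, had no read in any PL library. Atp5e, the epsilon subunit of the central stalk of the ATP synthase (chromosome 2, minus strand, 174286573 to 174289607 on mm9), was at 54.0, 7.99 and 6.84 CPM in PL 1, PL 2 and PL 3, against 38.3 to 146 CPM in the 12 others. PL 2 and PL 3 lay below every other library and PL 1 did not. The log2 fold change was −2.13 ± 0.61 (SE, edgeR adjusted p = 0.0524), and without PL 2 and PL 3 it was −0.91 (adjusted p = 0.986).

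Atp5j, the F6 subunit of the peripheral stalk, was at 896 CPM in PL 2, with 158 CPM in PL 1 and 144 CPM in PL 3, against 83.4 to 303 CPM in the others. PL 2 alone was high, and its log2 fold change of 1.41 ± 0.41 (SE, edgeR adjusted p = 0.0530) was 0.00 without PL 2. Atp5g1 was at 275 CPM in PL 3, with 17 CPM in PL 1 and 5.75 CPM in PL 2, against 6.22 to 44.6 CPM in the others. Atp5g1 had a log2 fold change of 2.53 ± 0.76 (SE, edgeR adjusted p = 0.0598), and without PL 3 it was −0.58. Ndufb8, an accessory subunit of complex I, was at 458 CPM in PL 2, 217 CPM in PL 3 and 138 CPM in PL 1, against 79.0 to 224 CPM in the others. It had a log2 fold change of 0.99 ± 0.33 (SE, edgeR adjusted p = 0.0879), and 0.37 without PL 2.

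In PL, Uqcrh and Cox6c were the 2 of the 74 members with all 3 libraries below the 12 others, as were 1.21% of all tested genes. Uqcrh was at 107, 125 and 86.7 CPM in PL, against 134 to 350.5 CPM in the others. For Uqcrh the log2 fold change was −0.93 ± 0.31 (SE, edgeR adjusted p = 0.0836), and it was −0.93 without PL 2 and PL 3 too. Cox6c was at 79.0, 39.3 and 47.9 CPM in PL, against 81.6 to 221 CPM in the others, with a log2 fold change of −1.23 ± 0.38 (SE, edgeR adjusted p = 0.0700). For Cox6c it was −0.72 without PL 2 and PL 3. Some sums of markers of other cells were high in PL 2 or PL 3, though the lists did not all go the same way. A list of 8 endothelial genes summed to 684 CPM in PL 2, of which Cdh5 gave 661 CPM, against at most 104 CPM in any of the libraries of TA, EDL, GS and IF. The 14 oligodendrocyte genes summed to 2509 CPM in PL 2, with 770 CPM in PL 3 and 451 CPM in PL 1, against at most 1707 CPM in the other pools, and Mobp of that list passed as higher in PL (edgeR adjusted p = 0.00862). A list of 10 microglia genes summed to 211 CPM in PL 3 and 54.6 CPM in PL 2, against at most 117 CPM in the other pools. A list of 7 fibroblast and meninges genes was lowest of the 15 libraries in PL 2, at 13.1 CPM. Over the tested genes of a list, the median log2 fold change in PL was −1.22 for microglia, −0.57 for endothelial cells and 0.85 for oligodendrocytes. The part of such RNA in the values of PL was not tested.

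How many members passed in PL depended on the setting. With DESeq2 in place of edgeR, 5 passed, Atp5e, Cox6c, Uqcrh and Ndufv1 with lower and Atp5g1 with higher values in PL, as did 12% of all genes tested in that way. With RLE size factors 2 members passed (all tested genes 5.57%) and with no filter on low counts 4 (7.26%). Leaving out 1 library changed the edgeR count to 11 without PL 1 (all tested genes 21.4%), 1 without PL 2 (4.03%), 2 without PL 3 (3.59%), 2 without TA 2 (3.9%) and 1 without TA 3 (4.67%). Without PL 2 and PL 3 together no member passed, and 0.061% of all tested genes did. In the test over all 5 pools, Atp5j passed with no filter (all tested genes 6.97%) and Atp5e without PL 1 (8.08%).

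**Figure D5:**
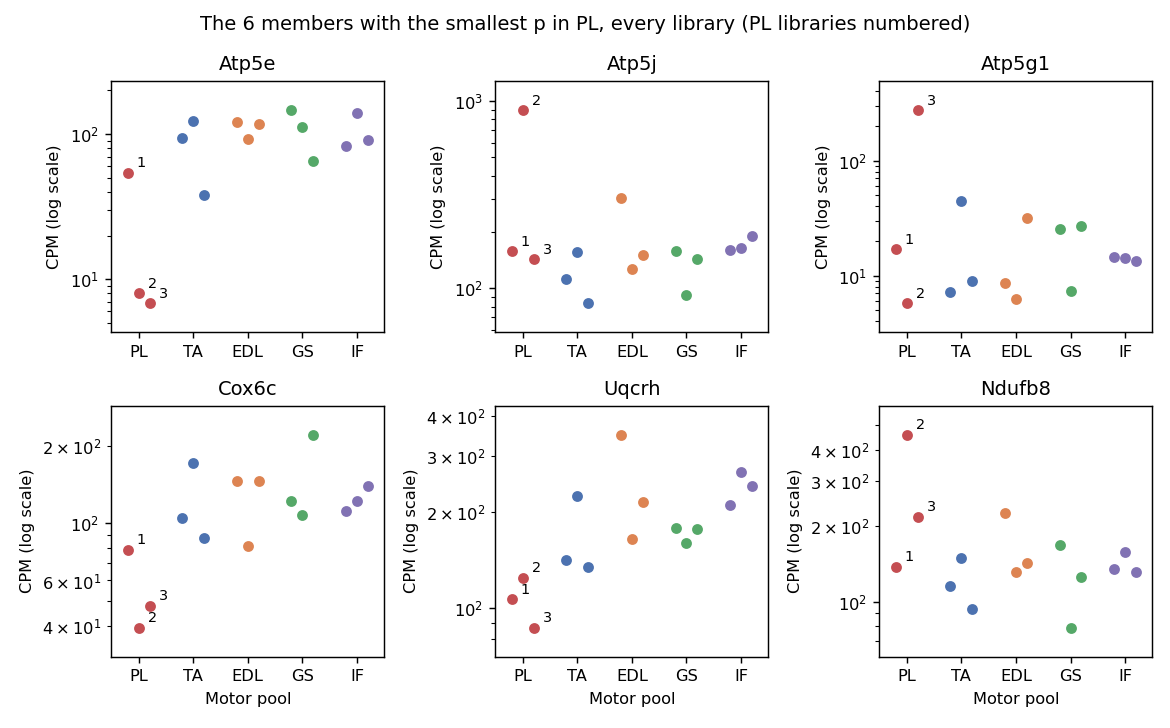
TMM-scaled CPM on log axes in every library for the 6 members with the smallest p in PL, with PL on the left of the other 4 pools and its libraries numbered. PL 2 alone is high for Atp5j at 896 CPM, PL 3 alone is high for Atp5g1 at 275 CPM, and PL 2 and PL 3 are low for Atp5e at 7.99 and 6.84 CPM.

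None of the 4 genes that are not subunits passed a test. Cox4nb, a neighbor of Cox4i1 whose protein belongs to a membrane complex of the endoplasmic reticulum, was at 491 CPM in PL 3, 65.6 CPM in PL 1 and 38.6 CPM in PL 2, against 16.7 to 164 CPM in the others. Its log2 fold change in PL was 1.51 ± 0.58 (SE, edgeR adjusted p = 0.139). Cox7a2l, which joins complexes III and IV into supercomplexes, was at 24.8 RPKM over all libraries, and Atp5s and Atp5sl were at 9.60 and 2.03 RPKM.

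Gene length was set beside the small shifts between pools, and its part in them was not tested. Members were short, with a median length of 1240 bases in the deposited table, against 3607.5 bases for all tested genes. In IF the 37 members below 1240 bases had a median log2 fold change of 0.28 and the 37 others 0.03, and all tested genes below and above that length had medians of 0.27 and 0.00. In PL the shorter members had a median of −0.27 and the longer ones 0.01, and all tested genes −0.25 and −0.04. In TA the shorter members had −0.26 and the longer −0.07, against −0.18 and 0.08 in all tested genes. In EDL they had 0.22 and 0.03, against 0.20 and 0.05. For GS the values were 0.17 and 0.04, against 0.10 and 0.04. The Spearman correlation of length and log2 fold change over the 74 members was 0.32 in PL and 0.11 in TA, and −0.32 in EDL, −0.30 in GS and −0.24 in IF. Over all tested genes it was 0.10 in PL and 0.08 in TA, and −0.11 in EDL, −0.05 in GS and −0.16 in IF. These comparisons share libraries, since each pool is part of the other 4 for the rest.

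Members varied together only weakly. Over the 15 libraries, the mean Spearman correlation between pairs of members was 0.149, against 0.0242 for pairs of all tested genes and 0.0757 for pairs among the 2284 genes above 95.8 CPM. Within complexes it was 0.128 for complex I, 0.0755 for complex III, 0.152 for complex IV and 0.175 for complex V. Without PL 2 and PL 3 it was 0.185 for the members, against 0.0059 for all tested genes and 0.0657 for the genes above 95.8 CPM. The pairs share libraries and their depth, so these values are a description.

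The spread of the members between libraries of a pool was below that of all tested genes in each pool. The median coefficient of variation within a pool was 32.5% for the members, against 61.3% for all tested genes. For the members it was 44.9% in TA, 28.0% in EDL, 53.6% in PL, 26.5% in GS and 10.7% in IF, and for all tested genes it ran from 22.5% in IF to 99.4% in PL. Genes above the members' median of 95.8 CPM, a set whose level is above that of the lower members, had 29.5% over the pools, with 29.8% in TA, 21.3% in EDL, 51.0% in PL, 27.6% in GS and 10.9% in IF. Cox5a had the lowest mean value of any member, 16.6%, followed by Atp5f1 at 18.5% and Atp5a1 at 19.0%.

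Around the members, other genes of mitochondrial energy supply were set beside them from fixed lists. Of the 4 subunits of complex II, Sdhb, its iron-sulfur subunit, passed in PL. Of 28 assembly factors in the table, Ttc19 and Cox17 passed in PL, of 17 genes of the citric acid cycle Cs, and of 11 genes of the outer membrane and carriers Vdac2. All 5 were higher in PL, as were 4.5% of all tested genes. No gene of these 4 lists passed in the other pools. None passed in any comparison among 14 genes of the electron carriers ubiquinone and cytochrome c and their enzymes, 16 genes of glycolysis or 15 regulators of mitochondrial genes that were tested.

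Ttc19, an assembly factor of complex III, was at 222, 266 and 541 CPM in PL, against 68.7 to 159 CPM in the 12 others, with no overlap. Its log2 fold change was 1.54 ± 0.31 (SE, edgeR adjusted p = 0.00875). Cox17, which carries copper to complex IV, was at 262 CPM in PL 3, 38.6 CPM in PL 2 and 14.7 CPM in PL 1, against 9.03 to 34.2 CPM in the others (2.57 ± 0.59, edgeR adjusted p = 0.0174). Cs, citrate synthase, was at 728, 1470 and 2423 CPM in PL, against 528 to 1233 CPM in the others, with a log2 fold change of 1.06 ± 0.27 (SE, edgeR adjusted p = 0.0268). Sdhb was at 173, 376 and 235 CPM in PL, against 69.2 to 216 CPM, with 1.07 ± 0.30 (SE, edgeR adjusted p = 0.0490). Vdac2, a channel of the outer membrane, was at 156, 348 and 778 CPM in PL, against 149 to 236 CPM in the others, with 1.16 ± 0.31 (SE, edgeR adjusted p = 0.0402). Of 22 alternative settings, Ttc19 failed the test in 3, Cox17 in 5, Cs in 11, Vdac2 in 16 and Sdhb in 18. Leaving out PL 3 alone ended the call of each of the 5: the log2 fold changes were then 1.05 for Ttc19, 0.58 for Cox17, 0.57 for Cs, 1.13 for Sdhb and 0.39 for Vdac2. Without PL 2 and PL 3 none of the 5 passed, and the log2 fold changes were 0.91 for Ttc19, 0.46 for Sdhb, −0.02 for Cs, −0.27 for Cox17 and −0.30 for Vdac2.

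The authors' deposited tables of pairwise differences between pools held 16 lists of 8 to 80 genes each. No member was in any of these 16 lists.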

How the data were processed

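For 15 RNA-seq libraries the authors deposited gene-level raw counts and RPKM values, made per the labels with the Ovation RNA-Seq System V2 and Nextera and sequenced on a HiSeq 2000. Per the submitters' processing notes the reads were aligned with Bowtie 0.12.9 to mm9, and the deposited lists of pairwise differences hold p-values from DESeq, whose version is not given in the sources used here, like the gene counter. Count and RPKM columns of 9 libraries, recorded here as other because they hold values below 0, had 16 such count cells in 4 genes as deposited, and these genes were left out. Gene counts were 44.1% to 55.0% of the reads by which the authors divided RPKM.

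Members and lists were chosen with earlier results of these data known, so no p is given for a list. Named genes were the 3 highest of each complex, the 2 smallest p-values of each test without calls, fixed core and isoform genes and called genes of the lists; the PL, IF and non-subunit genes beyond these were named after their values were seen. The test was edgeR 4.0.16 (R 4.3.3): filterByExpr, TMM, glmQLFit and glmQLFTest with 1 coefficient per pool, checked on simulated data. A pool's log2 fold change is its coefficient minus the mean of the other 4, and its SE is that value over the square root of F. Adjusted p-values are Benjamini-Hochberg over 14340 genes. Tables used pandas 2.3.3 and scipy 1.17.1. DESeq2 1.42.0, limma 3.58.1 and other settings were alternatives. The values of 1 member are not reported here, and it is included in all counts and sums.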

Additional observations from a re-analysis of the deposited data

How the results depend on the processing

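The count of members called was 0 in TA, EDL, GS and IF under all 22 alternative settings run. In PL it was 2 with RLE size factors, 4 with no filter on low counts and 5 with DESeq2, and 0 with library totals only, limma voom, the replicate block and without PL 2 and PL 3. Leaving out 1 library gave 0 to 11 calls in PL: 11 without PL 1, where 21.4% of all tested genes were called, 2 without PL 3 or TA 2, and 1 without PL 2 or TA 3. Over all 5 pools it was 1 with no filter (Atp5j) and 0 to 1 on leaving out a library, with Atp5e called without PL 1. The members' median log2 fold change moved most with library totals only, to −0.53 in PL and 0.43 in IF, where the medians of all tested genes were −0.37 and 0.33. It was −0.33 in PL without PL 2 and PL 3. On leaving out 1 library it ran from −0.27 to 0.06 in TA, −0.09 to 0.29 in EDL, −0.34 to −0.076 in PL, 0.03 to 0.17 in GS and 0.02 to 0.20 in IF. The cause of these shifts was not tested.

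Among single genes in PL, the log2 fold change fell to about 0 for Atp5j without PL 2 (−8.45e-05) and below 0 for Atp5g1 without PL 3 (−0.58). Without PL 2 and PL 3, which leaves 1 library in PL, it was about 0 for Atp5g1 (−0.021) and Cs (−0.024). In that setting it lay below 0 for Cox17 (−0.27) and Vdac2 (−0.30). On leaving out 1 library the value ran up to 1.80 for Atp5j, without PL 3, and to 3.08 for Atp5g1, without PL 2. Same-numbered libraries of different pools showed little common deviation (correlations −0.07 to 0.13 over 30 pairs, and 4 of 15 libraries correlated best with their own number). The main fit therefore did not pair them by number. Weak correlations cannot show that such libraries had no animals or handling in common, so pairing remains unknown. With the replicate block Cox17 (2.29), Vdac2 (1.11), Sdhb (1.02) and Cs (1.00) no longer passed in PL, Ttc19 (1.52) did, the members' count stayed 0 in every comparison, and the medians were −0.13 in TA, 0.14 in EDL, −0.19 in PL, 0.12 in GS and 0.18 in IF.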
